A study of Mus musculus with 12 samples.

Results

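The genes of metabolism and signalling described here, Sostdc1, Mtss1, Upp2, Nat8, Mthfd1 and Lpin1, were followed across 12 mouse pancreata because their signals were among those that fell most after caerulein in Mist1KO mice, in wild type mice or in both. All probe sets whose annotation names 1 of these genes and no other were taken, which gave 13 of the 22516 probe sets on the array and 6 of the 12336 genes with a symbol of their own. Of these 13 probe sets, 12 were bright enough to enter the fit, and a Mthfd1 probe set, 1436704_x_at, did not. The genes were chosen by their log2 changes after caerulein on these same arrays, so those changes are described below without a test, as are the differences between genotypes after a single kind of injection.

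The study compared 4 groups of 3 whole pancreata, each pancreas on an array of its own: Mist1KO mice given caerulein, Mist1KO mice given saline, wild type C57BL6 mice given caerulein and wild type C57BL6 mice given saline. Bhlha15 encodes Mist1, a transcription factor of enzyme-secreting cells such as those of the pancreatic acini, and the labels do not give the background strain of the Mist1KO mice or how the gene was disrupted. Caerulein is an analogue of the hormone cholecystokinin that drives enzyme secretion from acinar cells and, at high doses, causes acute pancreatitis in mice. All mice were males of 2 to 4 months, injected hourly for 4 hours and killed at the end of that time, and the design text calls the arrays biological replicates.

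Sostdc1 is a secreted protein that binds bone morphogenetic proteins (BMPs) and the Wnt co-receptors of the Lrp family and blunts their signals. Mtss1 bends the plasma membrane through its I-BAR domain and links it to actin. The other genes encode enzymes. Upp2 splits uridine into uracil and ribose phosphate, Nat8 acetylates cysteine conjugates in the final step of mercapturate formation from glutathione, Mthfd1 interconverts the folate carriers of one-carbon units in the cytosol, and Lpin1 removes the phosphate from phosphatidic acid to give diacylglycerol.

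Promoter windows of Upp2 and Nat8 are shown because Upp2 was lower after caerulein by similar amounts in both genotypes, while for Nat8 the wild type groups overlapped, and because each has a pair of annotated starts. The windows are RefSeq sequences of the GRCm38.p6 build, with 250 bases before and 50 bases after each start, written 5′ to 3′ on the strand of the gene. Capitals mark a TATAAA match or a tandem repeat, meaning a unit of 6 to 30 bases present at least 3 times in a row. The windows lie at chr2:58567084-58567383 on the plus strand (Upp2 start 1), chr2:58754934-58755233 on the plus strand (Upp2 start 2), chr6:85836808-85837107 on the minus strand (Nat8 start 1) and chr6:85832230-85832529 on the minus strand (Nat8 start 2).
Upp2 start 1: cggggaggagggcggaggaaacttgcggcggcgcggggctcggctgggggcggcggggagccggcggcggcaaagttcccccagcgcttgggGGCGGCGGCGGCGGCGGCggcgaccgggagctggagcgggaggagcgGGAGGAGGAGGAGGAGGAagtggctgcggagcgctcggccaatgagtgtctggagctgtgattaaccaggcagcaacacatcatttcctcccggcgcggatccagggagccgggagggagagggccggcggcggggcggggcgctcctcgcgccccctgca
Upp2 start 2: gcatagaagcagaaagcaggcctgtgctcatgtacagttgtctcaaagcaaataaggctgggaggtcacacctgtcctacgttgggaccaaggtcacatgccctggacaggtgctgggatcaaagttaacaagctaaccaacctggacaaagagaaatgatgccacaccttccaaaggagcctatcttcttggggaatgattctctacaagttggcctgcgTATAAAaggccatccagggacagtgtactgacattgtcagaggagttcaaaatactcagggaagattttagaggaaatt
Nat8 start 1: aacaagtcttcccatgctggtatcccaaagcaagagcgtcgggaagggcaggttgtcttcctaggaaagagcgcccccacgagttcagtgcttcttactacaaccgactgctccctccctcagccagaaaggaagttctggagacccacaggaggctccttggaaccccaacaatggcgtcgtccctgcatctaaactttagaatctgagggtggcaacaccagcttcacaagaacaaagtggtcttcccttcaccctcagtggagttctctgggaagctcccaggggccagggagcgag
Nat8 start 2: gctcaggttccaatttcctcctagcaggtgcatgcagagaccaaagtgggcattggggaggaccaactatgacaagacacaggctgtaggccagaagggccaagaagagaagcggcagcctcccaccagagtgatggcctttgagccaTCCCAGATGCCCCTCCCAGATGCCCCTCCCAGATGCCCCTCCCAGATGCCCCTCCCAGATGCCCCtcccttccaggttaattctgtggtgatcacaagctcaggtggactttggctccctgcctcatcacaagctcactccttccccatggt

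The Upp2 windows differed in composition. The upstream one is 75.3% G and C and carries runs of GGCGGC and of GGAGGA, 3 copies each, while the downstream one is 47.0% G and C and holds TATAAA starting 29 bases before the start. The median over 32851 windows of the mouse genome is 52.7%. TATAAA on either strand is found in 13.6% of those windows. The second Nat8 start follows 5 head-to-tail copies of a 13-base unit, TCCCAGATGCCCC, and a tandem repeat of the kind defined above is found in 3.68% of all windows. Windows were also given for Lpin1 (chr12:16610917-16611216, minus strand) and Mthfd1 (chr12:76254982-76255281, plus strand), and neither held TATAAA or a repeat. Other motifs searched on both strands were TTANGTAA (in 2.32% of all windows), TGANTCA (7.81%), CATATG (3.91%), CAGCTG (16.3%), TGATGNAA (3.97%), TGACGTNA (2.93%) and GGAAAA (23.4%). These letters were in 0 of the 6 windows of the member genes. Of the 6 genes, 3 lie on chromosome 12 in the GRCm38.p6 annotation: Lpin1 from base 16535669 to 16653903, Sostdc1 from 36314169 to 36318452 and Mthfd1 from 76254406 to 76319820. Upp2 spans bases 58566317 to 58795846 of chromosome 2, Nat8 bases 85830387 to 85836857 of chromosome 6 and Mtss1 bases 58941234 to 59083956 of chromosome 15.

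Values are linear signal intensities, scaled by the authors to a common mean on all arrays, with no detection calls. Log2 differences were taken after adding 18.7 to every value, which understates the change of dim genes. Bhlha15 separated the genotypes: its signal was 42.6, 38.3 and 79.4 in Mist1KO caerulein pancreata, 89.9, 95.9 and 106.8 in Mist1KO saline pancreata, 776.8, 729.5 and 838.5 in wild type caerulein pancreata and 1601, 1619 and 1624.3 in wild type saline pancreata. Array 3 of the Mist1KO caerulein group stood nearer to the other groups than arrays 1 and 2, at 28.87 on the first principal component against 47.43 and 52.12. The median over all probe sets fell by 0.131 on the log2 scale after caerulein in Mist1KO and by 0.144 in wild type pancreata, and the changes below are to be read against that shift. The summed signal of the 12 measured of 15 acinar markers was 82530 to 125900 on the Mist1KO caerulein arrays and 141800 to 166400 on the Mist1KO saline arrays, against 163100 to 224500 on the wild type caerulein arrays and 198500 to 250900 on the wild type saline arrays. None of the 12 was at 0. The summed signal of 6 duct markers was 2286 to 2555 on the Mist1KO caerulein arrays and 1442 to 1676 on the Mist1KO saline arrays, against 2021 to 2392 on the wild type caerulein arrays and 2282 to 2640 on the wild type saline arrays. That sum hides members that moved apart. Krt19 read 585.9 to 1055 on the Mist1KO caerulein arrays and 49.5 to 64.8 on the Mist1KO saline arrays, against 290.7 to 373.1 on the wild type caerulein arrays and 56.9 to 89.1 on the wild type saline arrays. Muc1, the brightest of the 6, read 1030.2 to 1338.3 on the Mist1KO caerulein arrays and 1224 to 1489.6 on the Mist1KO saline arrays, against 1261.5 to 1705.6 on the wild type caerulein arrays and 1873.9 to 2247.7 on the wild type saline arrays. Fibroblast and stellate cell markers summed to 1709 to 2362 on the Mist1KO caerulein arrays and 2841 to 4190 on the Mist1KO saline arrays, against 1693 to 2599 on the wild type caerulein arrays and 2271 to 4266 on the wild type saline arrays. Islet markers summed to 9638 to 10890 on the Mist1KO caerulein arrays and 13010 to 14440 on the Mist1KO saline arrays, against 11110 to 16220 on the wild type caerulein arrays and 13640 to 14400 on the wild type saline arrays. The 8 kidney tubule markers summed to 698 to 886.5 on the Mist1KO caerulein arrays and 751.2 to 794.1 on the Mist1KO saline arrays, against 821.2 to 906.9 on the wild type caerulein arrays and 998.4 to 1039 on the wild type saline arrays. Adipocyte markers summed to 443.9 to 903.3 on the Mist1KO caerulein arrays and 579.5 to 1117 on the Mist1KO saline arrays. On the wild type arrays they summed to 453.6 to 921.7 after caerulein and 728.7 to 1623 after saline. Lymphocyte markers summed to 975.2 to 1727 after caerulein and 671.3 to 1208 after saline in Mist1KO. Their wild type sums were 473.1 to 528.9 after caerulein and 693.8 to 1523 after saline. The part of these levels in the falls described here was not tested, and in whole pancreas a smaller share of cells of a type cannot be told apart from less RNA per cell. The added hybridisation controls also had their lowest level, a geometric mean of 408.4 to 513.1, on the Mist1KO caerulein arrays, against 755.3 to 1009 on the Mist1KO saline arrays. Their part was not tested either.

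All 3 Mist1KO caerulein arrays lay below all 3 Mist1KO saline arrays for 6 of the 6 genes, read on the brightest probe set of each. The same was true of 27.3% of all probe sets, and since this contrast chose the genes nothing follows from that count. In wild type pancreata the arrays separated for 4 genes, against 20.7% of all probe sets, and those of Nat8 and Mthfd1 overlapped. The label of silenced genes therefore did not hold for Nat8 in wild type mice. Nor did it hold there for Mthfd1 on its brightest probe set, at 41.1, 269.4 and 393.4 after caerulein. Mtss1 kept a signal of 75.1 to 150.1 after caerulein in Mist1KO mice. Sostdc1 and Mtss1 had the larger fall in wild type, and Nat8 and Mthfd1 in Mist1KO. Those of Upp2 and Lpin1 were of similar size in both, and these contrasts between genotypes carry no test.

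**Figure D1:**
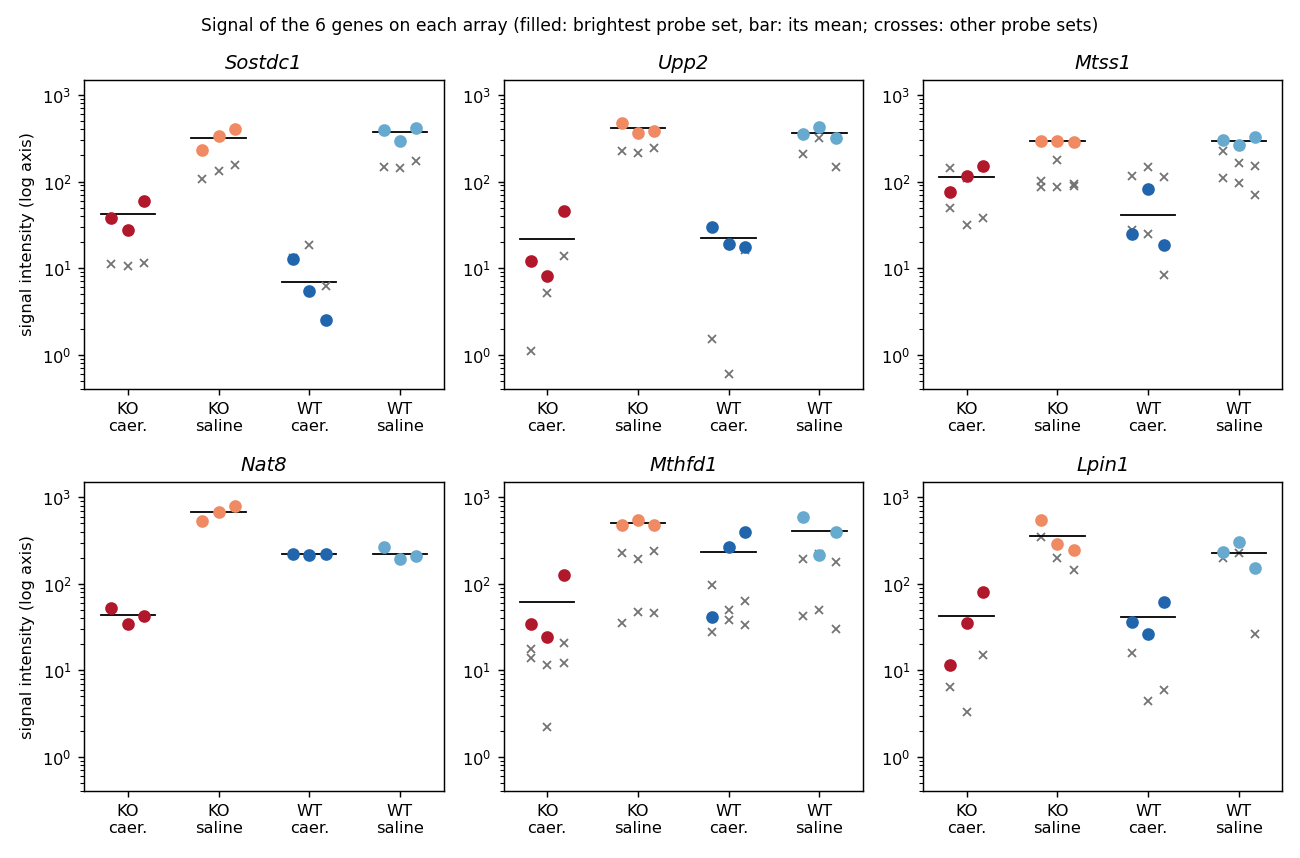
Signal intensity (log axis) of the 6 genes on each of the 12 arrays, by group (KO, Mist1KO; WT, wild type; caer., caerulein). Filled points are the brightest probe set with a bar at its mean, and crosses are the other probe sets. Upp2 sits between 8.2 and 45.5 in the caerulein groups and between 316.1 and 480.4 in the saline groups, whereas Nat8 is low on the 3 Mist1KO caerulein arrays only.

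Upp2 lost nearly all of its signal in both genotypes. On 1424969_s_at it read 12, 8.2 and 45.5 in Mist1KO caerulein pancreata, against 480.4, 365.1 and 386.3 in Mist1KO saline pancreata. In wild type mice it read 29.5, 19.2 and 17.4 after caerulein, against 356.1, 427.9 and 316.1 after saline. No caerulein array reached the lowest saline array in either genotype, and the single caerulein value above 30 was Mist1KO array 3. The log2 difference was −3.51 ± 0.28 (SE, n = 3 per group) in Mist1KO, an 11.4-fold lower level, and −3.24 ± 0.28 in wild type, 9.47-fold lower. These were the third and the fifth largest falls of all 15716 probe sets. The other probe set, 1451548_at, gave 1.1, 5.1 and 13.9 in Mist1KO caerulein pancreata, against 223.6, 214.7 and 245.7 in Mist1KO saline pancreata, and 1.5, 0.6 and 16.1 in wild type caerulein pancreata, against 206.4, 322.1 and 147.1 in wild type saline pancreata. Its log2 differences, −3.31 in Mist1KO and −3.29 in wild type, were close to those of the first.

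Upp2 had stood high on the saline arrays, between the 86.2 and 91.7 percentiles of the probe sets of an array, and was between the 12.6 and 37.1 percentiles after caerulein. For Upp2, Mist1KO minus wild type was −0.10 after caerulein and 0.16 after saline on the log2 scale, each smaller than its SE of 0.28. Averaged over both injections the difference was 0.03 ± 0.20 (limma adjusted p = 0.939).

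Sostdc1 showed the largest fall of any probe set in wild type pancreata. On 1449340_at it read 38, 27.9 and 60.2 in Mist1KO caerulein pancreata, against 230.5, 331.8 and 403 in Mist1KO saline pancreata. In wild type mice it read 12.7, 5.5 and 2.5 after caerulein, against 390, 297.8 and 419 after saline. The caerulein arrays were far below the saline arrays in both genotypes, and the Mist1KO caerulein arrays were all above the wild type caerulein arrays. The log2 difference was −2.49 ± 0.25 in Mist1KO, 5.61-fold lower and the rank-21 fall, and −3.93 ± 0.25 in wild type, 15.2-fold lower. The second probe set, 1460250_at, fell in both genotypes too, at 11.2, 10.7 and 11.4 in Mist1KO caerulein pancreata, against 106.9, 131.4 and 153.3 in Mist1KO saline pancreata, and at 13.1, 18.7 and 6.2 in wild type caerulein pancreata, against 146.1, 145.2 and 174.4 in wild type saline pancreata. It did not repeat the difference between genotypes after caerulein: Mist1KO minus wild type was 1.23 on the first probe set and −0.05 on the second.

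Mtss1 kept part of its signal after caerulein in Mist1KO mice. On 1434036_at it read 75.1, 115.7 and 150.1 in Mist1KO caerulein pancreata, against 294.7, 292.8 and 287.2 in Mist1KO saline pancreata. The wild type readings were 24.5, 81.8 and 18.4 after caerulein, against 305, 261.3 and 323.4 after saline. The saline arrays were nearly alike in both genotypes, and wild type caerulein array 2 reached the lowest Mist1KO caerulein array. Mtss1 had log2 differences of −1.27 ± 0.31 in Mist1KO, 2.41-fold lower, and −2.53 ± 0.31 in wild type, 5.77-fold lower, which placed it at rank 329 and rank 12 among the falls. A second probe set, 1424826_s_at, had log2 differences of −0.87 in Mist1KO and −1.52 in wild type. The third, 1451496_at, did not fall in Mist1KO mice, where it read 144, 109.7 and 146.5 after caerulein, against 100.2, 175.1 and 94.1 after saline. In wild type mice this probe set read 116.3, 149.1 and 113.3 after caerulein, against 223.5, 161.6 and 149.7 after saline. The array's probe sets for Mtss1 thus disagreed, and which transcripts each of them reads was not examined.

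Nat8 behaved differently from the other genes. On its only probe set, 1419520_at, it read 53, 34.4 and 42.8 in Mist1KO caerulein pancreata, against 537.2, 684.3 and 803 in Mist1KO saline pancreata. In wild type mice it read 220.1, 218.4 and 222.8 after caerulein, against 263.9, 194.5 and 212.7 after saline. The wild type groups overlapped, while in Mist1KO mice the saline arrays were above every wild type array and the caerulein arrays below every wild type array. The log2 difference after caerulein was −3.47 ± 0.17 in Mist1KO, 11.1-fold lower and the rank-4 fall, and −0.01 ± 0.17 in wild type. Between genotypes, Mist1KO minus wild type was −1.96 ± 0.17 after caerulein and 1.51 ± 0.17 after saline. These opposite differences nearly cancelled in the average over both injections, which was −0.22 ± 0.12 (limma adjusted p = 0.191).

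Mthfd1 was low on all Mist1KO caerulein arrays and uneven in wild type mice. On 1415916_a_at it read 34.2, 24.5 and 125.1 in Mist1KO caerulein pancreata, against 485.1, 544.9 and 480.2 in Mist1KO saline pancreata. The wild type readings were 41.1, 269.4 and 393.4 after caerulein, against 597.8, 216.7 and 394.4 after saline. The wild type groups overlapped and wild type caerulein array 1 was far below the other arrays of its group. Mthfd1 had log2 differences of −2.92 ± 0.60 in Mist1KO, 7.55-fold lower, and −1.03 ± 0.60 in wild type. Without wild type caerulein array 1 the wild type value became −0.18. The second probe set, 1415917_at, was steadier. It read 14, 11.7 and 20.5 in Mist1KO caerulein pancreata, against 230.2, 192.4 and 238.6 in Mist1KO saline pancreata, and 97.6, 49.6 and 63.3 in wild type caerulein pancreata, against 191.3, 221.3 and 178.6 in wild type saline pancreata. Here both genotypes separated by injection, with log2 differences of −2.81 ± 0.21 in Mist1KO and −1.31 ± 0.21 in wild type, and the Mist1KO caerulein arrays were all below the wild type caerulein arrays. The probe set left out as too dim, 1436704_x_at, read 17.7, 2.2 and 12.1 in Mist1KO caerulein pancreata, against 35.2, 47.3 and 46.5 in Mist1KO saline pancreata, with overlapping wild type groups.

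Lpin1 fell in both genotypes from an uneven saline level. On 1426516_a_at it read 11.6, 35 and 80.2 in Mist1KO caerulein pancreata, against 549.3, 288.6 and 244.3 in Mist1KO saline pancreata. The wild type readings were 36.3, 26.7 and 62.4 after caerulein, against 233.8, 301.9 and 153.4 after saline. No caerulein array overlapped the saline arrays of its genotype. Lpin1 had log2 differences of −2.72 ± 0.40 in Mist1KO, 6.58-fold lower and rank 18, and −2.03 ± 0.40 in wild type, 4.1-fold lower and rank 34. The second probe set, 1418288_at, gave 6.5, 3.3 and 15.2 in Mist1KO caerulein pancreata, against 348.2, 200.6 and 142.8 in Mist1KO saline pancreata, and 16, 4.4 and 5.9 in wild type caerulein pancreata, against 197.3, 229.7 and 26.1 in wild type saline pancreata. Wild type saline array 3 was low on it, although still above the wild type caerulein arrays.

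**Figure D2:**
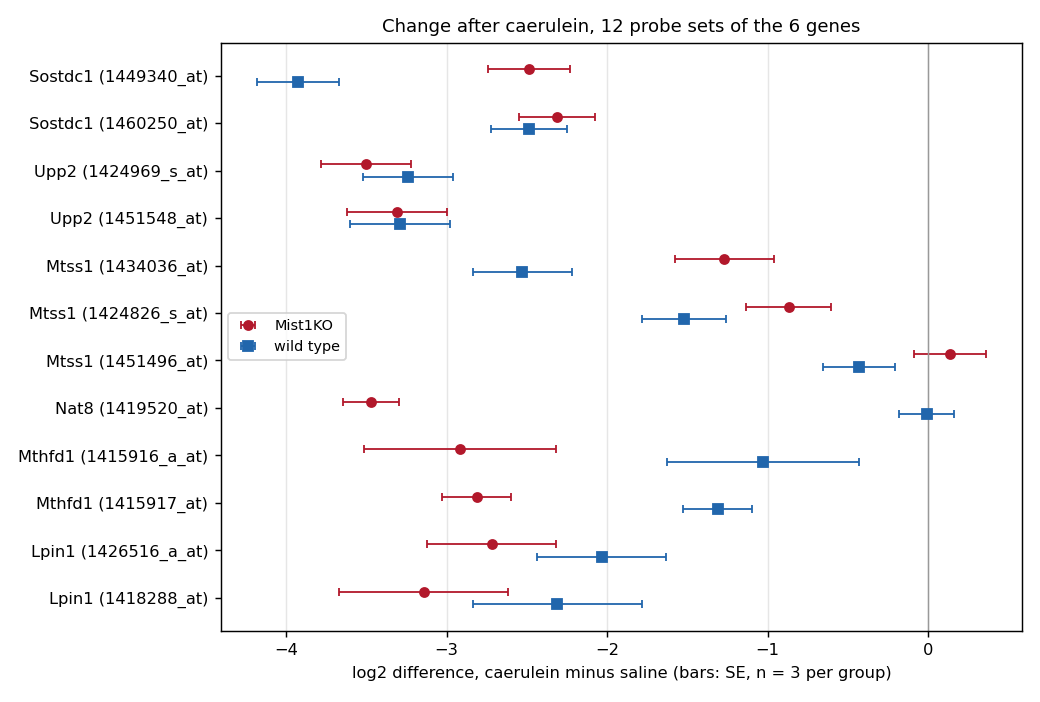
Log2 difference of group means, caerulein minus saline, for each fitted probe set of the 6 genes in Mist1KO and in wild type pancreata, with bars of 1 SE (n = 3 per group). The genotypes lie far apart for Nat8, at −3.47 in Mist1KO and −0.01 in wild type, and close together for Upp2, at −3.51 and −3.24.

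Mist1KO caerulein array 3 was the highest of its group for 5 of the 6 genes, all but Nat8. Without it the falls in Mist1KO were −2.69 for Sostdc1, −3.89 for Upp2, −1.47 for Mtss1, −3.47 for Nat8, −3.45 for Mthfd1 and −3.15 for Lpin1 on the log2 scale. Within a caerulein group the highest array exceeded the lowest by 1.02-fold for wild type Nat8 and by 9.57-fold for wild type Mthfd1, the extremes of the 12 such ratios.

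Mist1KO and wild type mice were compared as an average over both injections. That difference is uncorrelated with the falls that chose the genes only where saline and caerulein arrays spread alike, which was not so for every gene, and it uses the same caerulein arrays, so a call here is no independent evidence. In this comparison 28.3% of all probe sets passed the limma test at an adjusted p under 0.05, 13.6% higher and 14.7% lower in Mist1KO. Among the brightest probe sets of the 6 genes only that of Sostdc1 passed, at 0.51 ± 0.18 (adjusted p = 0.0474), so 1 of 6 genes was called against that background. The 0.51 is the mean of 1.23 after caerulein and −0.21 after saline, so it rests on the wild type caerulein arrays that gave Sostdc1 its large fall. The Sostdc1 call ended without any of 9 of the 12 arrays, adjusted p-values without 1 array running from 0.027 to 0.124, and the second Sostdc1 probe set stood at −0.14 ± 0.17 (limma adjusted p = 0.561). Mtss1 was at 0.61 ± 0.22 (limma adjusted p = 0.0501) and moved to 0.83 (adjusted p = 0.00173) without wild type caerulein array 2. Its other probe sets gave 0.28 and −0.22. Mthfd1 was at −0.53 ± 0.42 (limma adjusted p = 0.372), becoming −0.95 (adjusted p = 0.0339) without wild type caerulein array 1, and its steadier probe set 1415917_at was lower in Mist1KO by the test, at −0.60 ± 0.15 (limma adjusted p = 0.00936). Lpin1 was at 0.23 ± 0.28 (limma adjusted p = 0.58). A p above the threshold does not show that the genotypes were alike.

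**Figure D3:**
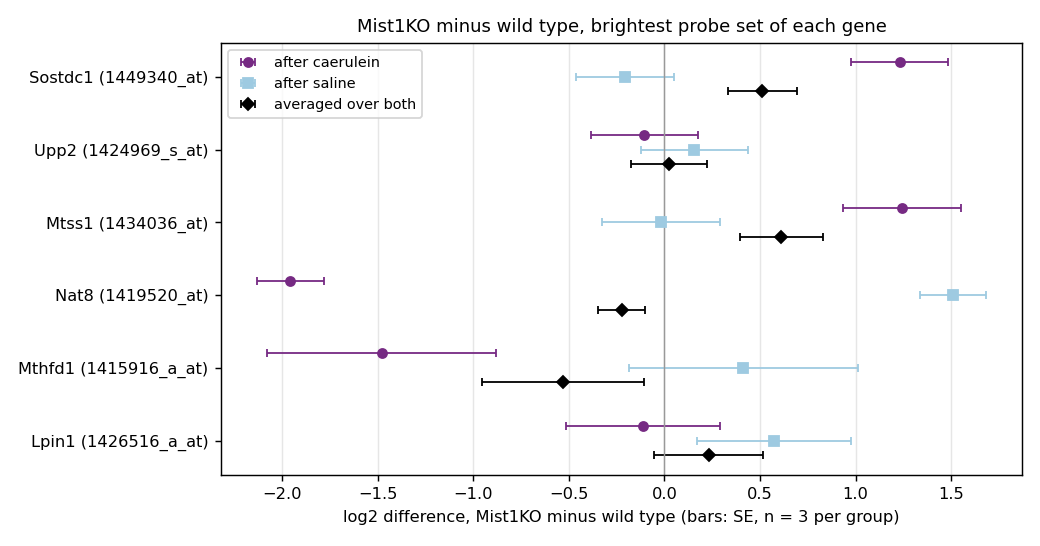
Log2 difference, Mist1KO minus wild type, of the brightest probe set of each of the 6 genes after caerulein, after saline and averaged over both injections, with bars of 1 SE (n = 3 per group). Nat8 is below 0 after caerulein (−1.96) and above 0 after saline (1.51), and the averaged values lie between −0.53 and 0.61.

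Over the 12 arrays the log2 values of Upp2 correlated with those of Lpin1 at r = 0.948, of Sostdc1 at 0.939 and of Mtss1 at 0.845. The lowest value of the 15 pairs was 0.37, for Mtss1 with Nat8. All of these points share the 4 groups, and after group means were subtracted the same coefficients were 0.677 for Upp2 with Lpin1, 0.391 with Sostdc1 and 0.196 with Mtss1, and −0.148 for Mtss1 with Nat8. Over the 15 pairs these coefficients ran from −0.526, for Nat8 with Lpin1, to 0.677. They are given as a description over 12 arrays of the same mice.

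The genes whose log2 values ran closest to each member, among 9471 other named genes, were found by Pearson correlation. Upp2 ran closest to Slc7a8, an amino acid transporter (r = 0.987), to Tmem184a (0.979) and to Sec62, a component of protein import into the endoplasmic reticulum (0.976). Slc7a8 averaged 215 in Mist1KO caerulein pancreata, against 1000 in Mist1KO saline pancreata, and 210 in wild type caerulein pancreata, against 890 in wild type saline pancreata. Sostdc1 was nearest to Fgfr1op2 (0.977), Bag4 (0.976) and the splicing factor Srsf6 (0.971). Mtss1 was nearest to Azin1, the antizyme inhibitor of polyamine metabolism (0.961), Mrfap1 (0.961) and BC031181 (0.957).

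Nat8 ran closest to Maged1 (0.975), to Dmd, the dystrophin gene (0.957), and to Gtf2i (0.943). Gtf2i averaged 166 in Mist1KO caerulein pancreata, against 598 in Mist1KO saline pancreata, and 284 in wild type caerulein pancreata, against 338 in wild type saline pancreata. Mthfd1 ran closest to Gatm, which makes the precursor of creatine (0.944), to Dcaf11 (0.936) and to the ER protein gene Sdf2l1 (0.924). Lpin1 ran closest to Serinc3 (0.973), to Ahcy, which hydrolyses S-adenosylhomocysteine (0.964), and to the RNA polymerase subunit gene Polr2j (0.956).

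Paralogues of the members moved in both directions. Of 20 paralogues listed, 11 had a probe set of their own and 10 were bright enough to be tested. In Mist1KO 3 rose and 3 fell after caerulein, and in wild type 5 rose and the other 5 did not pass the test, with background shares of 24.4% of named genes called in Mist1KO and 18.8% in wild type. The median log2 change of the 10 was 0.113 in Mist1KO and 0.638 in wild type, against −0.139 and −0.158 over all named genes.

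Upp1, the other uridine phosphorylase, moved opposite to Upp2 in Mist1KO mice. It read 141.3, 123.5 and 114.8 in Mist1KO caerulein pancreata, against 39.8, 26.2 and 47.3 in Mist1KO saline pancreata, and 72.8, 8.6 and 20.7 in wild type caerulein pancreata, against 90.8, 25.4 and 15.6 in wild type saline pancreata. The Mist1KO groups did not overlap and the wild type groups did. The log2 difference was 1.38 ± 0.45 in Mist1KO (limma adjusted p = 0.0396) and −0.25 ± 0.45 in wild type (adjusted p = 0.736), and the difference between them did not pass the test (limma adjusted p = 0.21), a test that 3.3% of all probe sets passed. The Mist1KO call ended when any 1 of the 6 Mist1KO arrays was left out, with log2 values from 1.221 to 1.499. It also ended with an offset of 1 (adjusted p = 0.0927) and without the filter on dim probe sets (adjusted p = 0.0623).

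The lipin paralogues Lpin2 and Lpin3 rose after caerulein in wild type mice. Lpin2 on 1452836_at read 316.8, 369.9 and 220.1 in Mist1KO caerulein pancreata, against 327.9, 283.1 and 346.5 in Mist1KO saline pancreata, and 625.6, 616.5 and 640.6 in wild type caerulein pancreata, against 268.6, 379.7 and 304.9 in wild type saline pancreata. Wild type caerulein arrays stood above all the others. Lpin2 had log2 differences of −0.10 ± 0.17 in Mist1KO (limma adjusted p = 0.735) and 0.95 ± 0.17 in wild type (limma adjusted p = 0.0016). The difference between genotypes, −1.05 ± 0.25, passed the test (limma adjusted p = 0.0332), and that call ended on leaving out any of 8 of the 12 arrays. Lpin2 probe set 1452837_at had 0.02 in Mist1KO (limma adjusted p = 0.985) and 2.01 in wild type (adjusted p = 0.00891). On 1460290_at it had 0.87 (adjusted p = 0.174) and 1.55 (adjusted p = 0.022, ending without any of 4 wild type arrays). The difference between genotypes passed on neither, at −1.99 (limma adjusted p = 0.136) and −0.69 (adjusted p = 0.639). Lpin3 had log2 differences of 0.32 ± 0.25 in Mist1KO (limma adjusted p = 0.392) and 1.36 ± 0.25 in wild type (limma adjusted p = 0.00171). For Lpin3 the difference between genotypes did not pass the test (limma adjusted p = 0.143).

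Mthfd2, a mitochondrial enzyme of folate one-carbon metabolism, rose on its brightest probe set in both genotypes. It read 671.2, 701.4 and 474.6 in Mist1KO caerulein pancreata, against 407.1, 387.5 and 402.8 in Mist1KO saline pancreata, and 1252.9, 1481.8 and 1469.6 in wild type caerulein pancreata, against 703.2, 741.4 and 584.4 in wild type saline pancreata. Caerulein arrays were above the saline arrays of the same genotype throughout. Mthfd2 had log2 differences of 0.58 ± 0.15 in Mist1KO (limma adjusted p = 0.0105) and 1.03 ± 0.15 in wild type (limma adjusted p = 0.000248). The second probe set had log2 differences of −0.09 in Mist1KO and 0.74 in wild type, and the Mist1KO call on the brightest one ended without Mist1KO caerulein array 1 or 2.

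In the Nat8 family, 3 paralogues fell after caerulein in Mist1KO mice by the test. Nat8f1 had log2 differences of −0.91 in Mist1KO (limma adjusted p = 0.0152) and −0.46 in wild type (adjusted p = 0.219), and Nat8f5 had −1.65 in Mist1KO (limma adjusted p = 0.0151) and 0.32 in wild type (adjusted p = 0.653). For neither did the difference between genotypes pass the test (limma adjusted p = 0.576 for Nat8f1 and 0.118 for Nat8f5). Nat8f2 on its brightest probe set had log2 differences of −1.07 in Mist1KO (limma adjusted p = 0.0192) and −0.30 in wild type (adjusted p = 0.516). Each of these Mist1KO calls ended without single arrays: Nat8f1 without Mist1KO saline array 2 or caerulein array 3, Nat8f5 without saline array 3 or caerulein array 2, and Nat8f2 without saline array 3 or caerulein array 1 or 2. A dimmer Nat8f2 probe set, 1455232_at, read 13.6, 32.9 and 37.3 in Mist1KO caerulein pancreata, against 146.8, 220.2 and 214.8 in Mist1KO saline pancreata, and 39.1, 28.5 and 31 in wild type caerulein pancreata, against 56.8, 55 and 41.7 in wild type saline pancreata.

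The third Nat8f2 probe set, 1421108_at, had log2 differences of −2.19 in Mist1KO (limma adjusted p = 0.00131) and −0.62 in wild type (adjusted p = 0.315). As with Nat8, the Mist1KO saline arrays of 1455232_at were the highest of all, at 1.59 on the log2 scale above wild type saline (limma adjusted p = 0.00171), in a comparison that called 12.6% of all probe sets. Its change after caerulein was −2.21 in Mist1KO (limma adjusted p = 3.2e-05) and −0.44 in wild type (adjusted p = 0.265), and the difference between them was −1.77 (limma adjusted p = 0.0187), with adjusted p = 0.0531 without Mist1KO saline array 2 and 0.0628 without Mist1KO saline array 3. The same difference did not pass on the other Nat8f2 probe sets, at −0.77 (limma adjusted p = 0.399) on the brightest and −1.57 (limma adjusted p = 0.172) on 1421108_at. Nat8f4 on its brightest probe set had log2 differences of −0.49 in Mist1KO (limma adjusted p = 0.141) and −0.19 in wild type (adjusted p = 0.593). Without Mist1KO saline array 2 the Mist1KO value was −0.76 (limma adjusted p = 0.0185). Nat8f4 probe sets too dim to be tested had log2 differences of −1.65 (1436669_at) and −1.67 (1436670_x_at) in Mist1KO, and −0.28 and −0.94 in wild type. With the mean of all its probe sets, Nat8f4 had −1.27 in Mist1KO (limma adjusted p = 0.00106). Members of this family resemble each other in sequence, so a probe set may read more than its named gene, and how far this occurred was not tested.

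Baiap2 and Baiap2l1 encode I-BAR proteins like Mtss1, and their probe sets disagreed. The brightest of Baiap2 had log2 differences of 0.99 ± 0.47 in Mist1KO (limma adjusted p = 0.151) and 2.37 ± 0.47 in wild type (limma adjusted p = 0.00306), the wild type saline arrays ranging from 18.9 to 151.8. On it the difference between genotypes did not pass the test (limma adjusted p = 0.32). Of the other Baiap2 probe sets, 1451027_at had 0.61 in Mist1KO (limma adjusted p = 0.385) and 1.67 in wild type (limma adjusted p = 0.0217, ending without any of 4 wild type arrays). The remaining ones passed in neither genotype, with 0.44 in Mist1KO and 0.24 in wild type for 1435128_at, and 0.24 in Mist1KO and 0.09 in wild type for 1451028_at. On its brightest probe set Baiap2l1 rose by 0.83 ± 0.21 in Mist1KO (limma adjusted p = 0.0108) and 1.25 ± 0.21 in wild type (limma adjusted p = 0.000875). The Mist1KO call of Baiap2l1 ended without saline array 3 or caerulein array 1, and its second probe set had log2 differences of 0.27 in Mist1KO and 0.40 in wild type. The Sostdc1 paralogue Sost was too dim to be tested on either probe set.

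**Figure D4:**
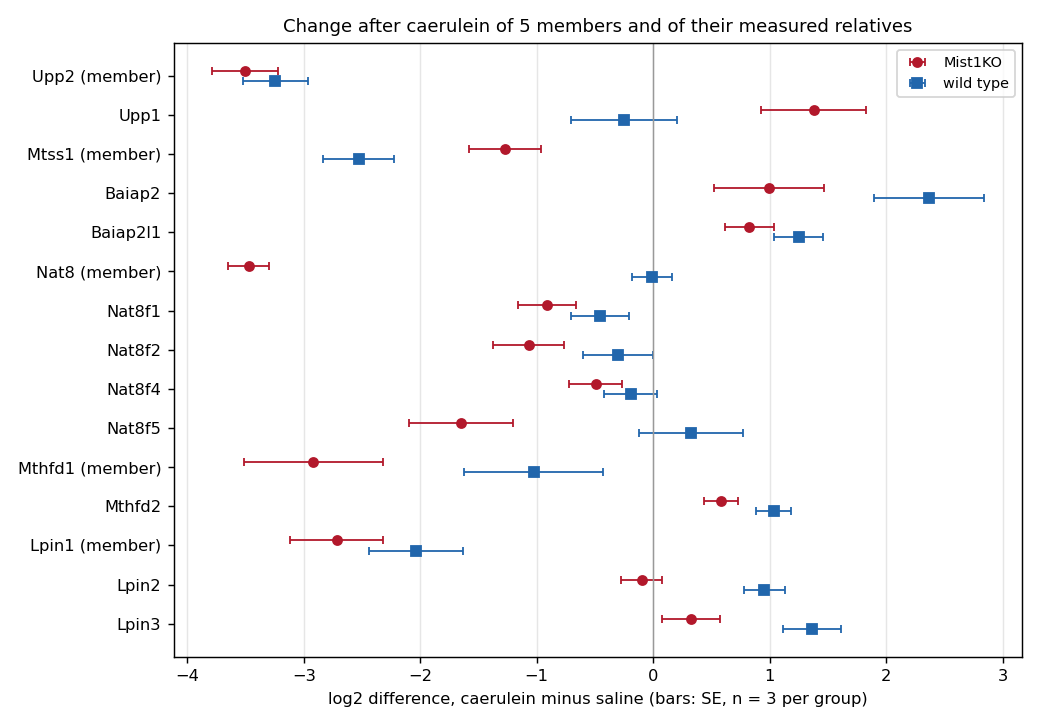
Log2 difference, caerulein minus saline, of the tested paralogues and of the members they resemble, in Mist1KO and in wild type pancreata. Each gene is shown on its brightest probe set, with bars of 1 SE (n = 3 per group). Nat8f2 (1421109_at) is at −1.07 in Mist1KO and −0.30 in wild type, and Lpin2 (1452836_at) is at −0.10 in Mist1KO and 0.95 in wild type.

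Together with the list of paralogues, 7 lists held 233 genes, of which 152 were tested. The counts here therefore include the paralogue calls given above. After caerulein 24 rose and 33 fell in Mist1KO, against background shares of 10.3% and 14% of named genes, and 17 rose and 19 fell in wild type, against 8.84% and 9.97%. Of these, 11 rose in both genotypes and 14 fell in both. When arrays were scaled to a common median instead, 54.9% of the calls among the listed genes were rises in Mist1KO, against 42.1% without that scaling, and 67.7% were rises in wild type, against 47.2%.

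**Figure D5:**
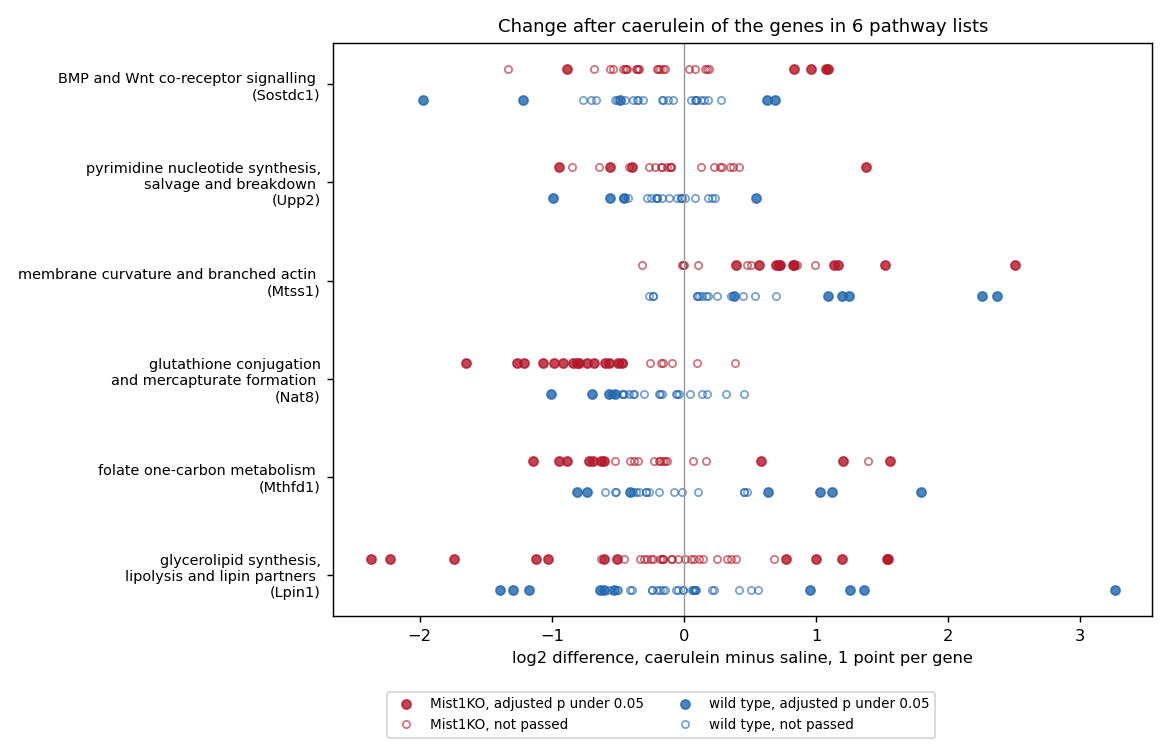
Log2 difference, caerulein minus saline, of each tested gene in 6 pathway lists, in Mist1KO and in wild type pancreata. Filled points passed the test at an adjusted p under 0.05. In Mist1KO the membrane and actin genes lie mostly to the right of 0 (median 0.71) and the glutathione genes mostly to the left (median −0.58).

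Around Nat8, 24 genes of glutathione conjugation and mercapturate formation were tested, of which 15 fell after caerulein in Mist1KO and 4 in wild type. The other 9 in Mist1KO and 20 in wild type did not pass the test. The difference between genotypes in the change after caerulein passed the limma test for 0 of the 24, each read on its brightest probe set. The median log2 change was −0.58 in Mist1KO and −0.34 in wild type. Of all named genes, 14% fell by the same test in Mist1KO and 9.97% in wild type. The 15 that fell in Mist1KO include Nat8f1, Nat8f2 and Nat8f5, whose calls ended without single arrays as given above. The Mist1KO count was 9 without Mist1KO caerulein array 2, and the wild type count was 2 with arrays scaled to a common median. Of the 14 glutathione transferases tested, 9 fell in Mist1KO and 4 in wild type. Gstm1 read 1131.8, 1203.2 and 1495 in Mist1KO caerulein pancreata, against 2490.8, 2300.4 and 2824.9 in Mist1KO saline pancreata, and 487.4, 396.3 and 512.4 in wild type caerulein pancreata, against 836.9, 731.6 and 718.8 in wild type saline pancreata. Its groups separated by injection in both genotypes, and it fell by 0.99 on the log2 scale in Mist1KO (limma adjusted p = 0.00014) and by 0.70 in wild type (limma adjusted p = 0.00293). Gstt2 fell by 0.68 in Mist1KO (limma adjusted p = 0.0124, ending without Mist1KO saline array 3 at 0.067) and by 1.01 in wild type (limma adjusted p = 0.00121). Gstm3 had log2 differences of −1.26 in Mist1KO (limma adjusted p = 0.0369, and between 0.0938 and 0.163 without Mist1KO saline array 1 or 2 or caerulein array 1 or 2) and 0.45 in wild type (adjusted p = 0.471). Transferases of a class are close in sequence, and cross-hybridisation between them was not tested.

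Around Mtss1, 20 genes of membrane curvature and branched actin were tested, of which 11 rose after caerulein in Mist1KO and 6 in wild type. The other 9 in Mist1KO and 14 in wild type did not pass the test. Their median log2 change was 0.71 in Mist1KO and 0.30 in wild type. Of all named genes, 10.3% rose by the same test in Mist1KO and 8.84% in wild type. Cttn, encoding the actin-binding protein cortactin, read 1083.4, 1263.3 and 883.8 in Mist1KO caerulein pancreata, against 197, 165.3 and 155.3 in Mist1KO saline pancreata, and 466.1, 698.9 and 780.3 in wild type caerulein pancreata, against 116.3, 69.8 and 192.5 in wild type saline pancreata. No groups overlapped by injection. Cttn rose by 2.51 ± 0.27 in Mist1KO (limma adjusted p = 1.36e-05) and 2.26 ± 0.27 in wild type (limma adjusted p = 5.14e-05). Arpc2, a subunit of the Arp2/3 complex that nucleates branched actin, rose by 1.52 in Mist1KO (limma adjusted p = 5.43e-07) and 1.09 in wild type (limma adjusted p = 1.47e-05).

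Around Lpin1, 36 genes of glycerolipid synthesis and breakdown were tested, and 5 rose and 7 fell in Mist1KO while 4 rose and 6 fell in wild type. The median log2 change was −0.128 in Mist1KO and −0.0518 in wild type, close to that of all named genes. Of all named genes, 24.4% were called in either direction in Mist1KO and 18.8% in wild type. Gpam, which starts glycerolipid synthesis in mitochondria by acylating glycerol phosphate, read 170.6, 166.9 and 211.2 in Mist1KO caerulein pancreata, against 1098.4, 961.9 and 1003.9 in Mist1KO saline pancreata, and 431.3, 312.7 and 360.4 in wild type caerulein pancreata, against 772.8, 762.5 and 1028 in wild type saline pancreata. The Mist1KO caerulein arrays were the lowest of all. Gpam fell by 2.37 in Mist1KO (limma adjusted p = 2e-07) and by 1.17 in wild type (limma adjusted p = 0.000112), and the difference of −1.20 between them passed the test (limma adjusted p = 0.0089).

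Plpp3, a phosphatase of phosphatidic acid at the cell surface, fell by 2.23 in Mist1KO (limma adjusted p = 1.39e-07) and by 1.30 in wild type (limma adjusted p = 1.98e-05). The difference of −0.93 had limma adjusted p = 0.0193, and 0.0628 without Mist1KO saline array 3. Its relative Plpp2 rose by 1.55 in Mist1KO (limma adjusted p = 2.05e-06) and 1.26 in wild type (limma adjusted p = 1.88e-05). Chka, the choline kinase that opens phosphatidylcholine synthesis, rose by 1.53 in Mist1KO (limma adjusted p = 0.00701) and 3.27 in wild type (limma adjusted p = 3.1e-05). Etnk1, the ethanolamine kinase, had log2 differences of −0.33 in Mist1KO (limma adjusted p = 0.22) and −1.40 in wild type (limma adjusted p = 0.000114).

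Around Mthfd1, 23 genes of folate one-carbon metabolism and its methionine and purine branches were tested, and 3 rose and 7 fell in Mist1KO while 4 rose and 3 fell in wild type. The background of calls in either direction was 24.4% of named genes in Mist1KO and 18.8% in wild type. The mitochondrial serine hydroxymethyltransferase gene Shmt2 rose by 1.20 in Mist1KO (limma adjusted p = 6.81e-05) and 1.79 in wild type (limma adjusted p = 3.2e-06), with signals of 372.7, 343.8 and 261.4 in Mist1KO caerulein pancreata, against 123.9, 136.4 and 128.2 in Mist1KO saline pancreata, and 526.5, 642 and 709.7 in wild type caerulein pancreata, against 179.1, 162.1 and 156.9 in wild type saline pancreata. Every caerulein array was above every saline array. Mat1a, which makes S-adenosylmethionine, rose by 1.56 in Mist1KO (limma adjusted p = 0.000384) and 1.12 in wild type (limma adjusted p = 0.00599). Ahcy fell by 0.89 in Mist1KO (limma adjusted p = 0.000197) and by 0.81 in wild type (limma adjusted p = 0.000589). Ggh, the gamma-glutamyl hydrolase of folates, fell by 0.72 in Mist1KO (limma adjusted p = 0.00283) and by 0.73 in wild type (limma adjusted p = 0.00342). The cytosolic folate enzyme Aldh1l1 had log2 differences of −0.95 in Mist1KO (limma adjusted p = 0.000183) and −0.19 in wild type (limma adjusted p = 0.353), and the glycine methyltransferase Gnmt had −1.15 in Mist1KO (limma adjusted p = 0.00484) and −0.60 in wild type (adjusted p = 0.124). For Gnmt the difference between genotypes did not pass the test (limma adjusted p = 0.494).

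Around Upp2, 22 genes of pyrimidine synthesis, salvage and breakdown were tested, and 1 rose and 3 fell in each genotype, so the share called was not above the background of 24.4% in Mist1KO and 18.8% in wild type. The mitochondrial thymidine kinase Tk2 had log2 differences of −0.94 in Mist1KO (limma adjusted p = 0.00349) and −0.20 in wild type (adjusted p = 0.51). The nucleoside transporter Slc29a3 had a log2 difference of −0.56 in both genotypes (limma adjusted p = 0.0252 in Mist1KO and 0.031 in wild type). Umps, the last enzyme of uridine monophosphate synthesis, had log2 differences of 0.28 in Mist1KO (adjusted p = 0.273) and 0.54 in wild type (limma adjusted p = 0.0371). The nucleotidase Nt5c had log2 differences of 0.23 in Mist1KO (adjusted p = 0.662) and −0.99 in wild type (limma adjusted p = 0.0432), or −0.61 in wild type without wild type caerulein array 1. The difference between genotypes passed the limma test for 0 of the 22 genes (adjusted p = 0.197 for Tk2 and 0.181 for Nt5c). Calls of Slc29a3, Umps and Nt5c each ended without single arrays, and with arrays scaled to a common median none of the 3 falls in wild type passed, the adjusted p being 0.0999 for Slc29a3 and 0.0863 for Nt5c.

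Around Sostdc1, 27 genes of BMP and Wnt co-receptor signalling were tested, and 4 rose and 1 fell in Mist1KO while 2 rose and 3 fell in wild type. The share called was thus not above the background of 24.4% in Mist1KO and 18.8% in wild type. Smad1, which carries BMP signals to the nucleus, rose by 1.07 in Mist1KO (limma adjusted p = 0.000121) and 0.63 in wild type (limma adjusted p = 0.0086). The BMP receptor Acvr1 rose by 0.83 in Mist1KO (limma adjusted p = 0.00826) and 0.69 in wild type (limma adjusted p = 0.0282, ending without any of 4 wild type arrays). Id2, a target of BMP signals, had log2 differences of 1.09 in Mist1KO (limma adjusted p = 0.00768) and −0.12 in wild type (adjusted p = 0.786). Acvr2b had log2 differences of −0.89 in Mist1KO (limma adjusted p = 0.0347, ending without any of 4 Mist1KO arrays) and −0.52 in wild type (adjusted p = 0.221). Co-receptors that Sostdc1 binds fell after caerulein in wild type: Lrp4 had log2 differences of −0.68 in Mist1KO (adjusted p = 0.205) and −1.98 in wild type (limma adjusted p = 0.00173), and Lrp6 had −0.34 in Mist1KO (adjusted p = 0.193) and −1.22 in wild type (limma adjusted p = 0.000286). The difference between genotypes passed the test for 0 of the 27 genes (limma adjusted p = 0.102 for Id2, 0.216 for Lrp4 and 0.0778 for Lrp6).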

How the data were processed

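The authors deposited 1 table of linear signal intensities for 12 arrays, 1 per pancreas, with 2% trimmed means of 151.08 to 151.37 on all arrays. The summarising software, the scaling target and detection calls are not stated in the labels or the table. Sample titles gave the genotype and injection of each group. The members and the gene lists were chosen with earlier results of these data known. Control probe sets and those with a mean log2 value at or below the 30th percentile were left out, which kept 15716 probe sets and 9477 named genes. Differences of log2(value + 18.7) were fitted with limma 3.58.1 in R 4.3.3 (a mean per group, 8 residual degrees of freedom, intensity trend), and two-sided p-values were adjusted after Benjamini and Hochberg across the kept probe sets at a threshold of 0.05. The offset is the 20th percentile of all values. The brightest probe set stood for its gene. Named were all members and measured paralogues, per list and genotype the 2 largest rises and falls past the threshold, and the 3 genes with the nearest pattern to each member. Other settings were the offset, filter, scaling, trend, probe set rule, replicate block and leaving out each array. The fit was tested on simulated data. The number of arrays limits the precision. Figures used matplotlib 3.10.9.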

Additional observations from a re-analysis of the deposited data

Results flagged for a closer look

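A difference between genotypes in the response to caerulein was tested as an interaction with limma, which 3.3% of all probe sets passed. Of the 152 listed genes 11 passed, 5 with a higher and 6 with a lower value in Mist1KO. The 36 listed genes named above were picked for large changes within a genotype, which favours such a difference, and 5 of them passed (1 higher, 4 lower), besides a dimmer probe set of Nat8f2. The difference is Mist1KO minus wild type on the log2 scale. It was −1.773 for Nat8f2 on probe set 1455232_at (the other Nat8f2 probe sets, at −0.77 and −1.57, did not pass), −1.2 for Gpam, −1.053 for Lpin2, −0.932 for Plpp3, −0.756 for Aldh1l1 (adjusted p = 0.049) and 1.067 for Etnk1 (adjusted p = 0.0388). The Etnk1 signals were 120.9, 97 and 151.7 in Mist1KO caerulein pancreata, against 153.3, 163.4 and 155.3 in Mist1KO saline pancreata, and 102.8, 87.8 and 114.8 in wild type caerulein pancreata, against 370.1, 263.3 and 268.2 in wild type saline pancreata. The Gpam call held without any single array. With the mean of all probe sets of a gene none of these 5 genes passed. The limma adjusted p was then 0.0869 for Gpam, 0.0842 for Plpp3, 0.173 for Lpin2, 0.476 for Aldh1l1 and 0.102 for Etnk1. The Aldh1l1 call ended on leaving out any of 11 of the 12 arrays. Those of Etnk1 and Lpin2 each ended on leaving out any of 8 arrays, that of Nat8f2 any of 2 and that of Plpp3 1. Etnk1 also did not pass without the dim filter (limma adjusted p = 0.0558), without the intensity trend (0.0578) or with the replicate block (0.0508). On the other Lpin2 probe sets the difference did not pass.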

How the results depend on the processing

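No value past the threshold, and no fall of a member in Mist1KO, changed sign under any alternative run. With an offset of 1 the falls were −2.939 in Mist1KO and −5.755 in wild type for Sostdc1, −4.528 and −4.022 for Upp2, −3.104 in wild type for Mtss1 and −3.93 in Mist1KO for Nat8, and Mist1KO minus wild type after caerulein was 2.597 for Sostdc1 and −2.34 for Nat8. With an offset of 50 these were −2.002 and −2.873 for Sostdc1, −2.708 and −2.527 for Upp2, −2.944 in Mist1KO for Nat8 and −1.59 in wild type for Lpin1, and 0.6826 and −1.539 for the genotype difference of Sostdc1 and Nat8 after caerulein. With the mean of all probe sets of a gene, Sostdc1 fell by 3.207 in wild type with 0.5886 between genotypes after caerulein, and Mtss1 was at −0.6678 in Mist1KO, −1.494 in wild type and −0.1877 between genotypes after saline. The averaged genotype difference of Sostdc1 lost its call at 0.2471 (offset of 50, adjusted p = 0.192), at 0.5123 without the dim filter (adjusted p = 0.0746), without the intensity trend (0.0511) and with the replicate block (0.0534), and at 0.1855 with the mean of probe sets (0.357). That of Mtss1 passed at 0.6377 under quantile normalization and 0.7109 under median scaling, and that of Mthfd1 at −0.5103 with the mean of probe sets. Leaving out single arrays gave 0.4092 to 0.6165 for Sostdc1, 0.4735 to 0.8329 for Mtss1 and −0.9532 to −0.257 for Mthfd1. Listed genes that fell in wild type numbered 10 under median scaling, against 19. Named genes past the interaction threshold numbered 5 as reported, 3 without the dim filter, 2 without the trend, 1 with the mean of probe sets, 2 with the replicate block and 1 to 7 without single arrays. With the mean of probe sets the 1 gene was Id2 (limma adjusted p = 0.0493), which was not among the 5. Median scaling moved the share of higher calls over all probe sets to 61.4% in Mist1KO, 69.8% in wild type and 64.9% between genotypes, against 43.9%, 48.5% and 48%, and over listed genes between genotypes to 67.2%, against 53.6%. Arrays of the same replicate number did not deviate together (r from −0.104 to 0.0452 over 18 pairs, none over 0.1), and 2 of 12 arrays correlated best with their own number, so the numbers were not taken as pairs. The causes of these changes were not tested. Dim caerulein signals carry no detection calls, so how far the lowest of them stand above background is unknown.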
